A study of Mus musculus with 6 samples.

Results

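Muscle genes of oxygen storage and rapid energy supply were compared between myoblasts grown on fibronectin and on collagen I. The set has 10 genes of 18193 on the array, namely myoglobin (Mb), the creatine kinases Ckm, Ckb and Ckmt2, the glycolytic enzymes Pfkm, Pgam2 and Eno3, the glycogen genes Pygm and Phka1, and the AMP deaminase Ampd1. They were chosen by name, as every probe set that the array's annotation assigns to 1 of these genes and to no other. This gave 14 probe sets of 45101, with 3 for Phka1, 2 each for Mb and Ckm and 1 for each of the other 7 genes. A probe set is a group of short probes whose signals are combined into 1 value for a transcript.

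Both groups were myoblasts, the dividing precursors of muscle fibres. The donors were C57BL/6JRj mice, male and 9 to 15 weeks old, and the tissue was hindlimb muscle. Both groups shared their medium, Hams F-10 to which 20% FBS, 2.5 ng/ml of the growth factor bFGF and P/S had been added, and they differed in the coating of the dish, Collagen I or Fibronectin. Growth on the coating lasted 72 hours. Each coating had 3 samples. Whether these came from separate cultures or animals, or from pooled animals, is not stated in the labels, so the p-values cover the spread among the samples at hand, and this may be technical. Total RNA was hybridised to an Affymetrix mouse array, and values are the deposited log2 signals, on which a difference of 1 is a doubling. Sample medians lay between 2.30 and 2.39, no pair of samples was identical over all probe sets, and the number of arrays limits the precision.

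Muscle stores oxygen on myoglobin, a heme protein of the cytoplasm, and buffers its ATP with phosphocreatine, from which creatine kinases regenerate ATP. Glycogen phosphorylase, switched on by phosphorylase kinase, releases glucose units that glycolysis turns into ATP without oxygen. Several steps are carried out by isoforms that become abundant as myoblasts differentiate, whereas dividing cells rely on more widely expressed isoforms of the same enzymes.

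On fibronectin 3 of the 10 genes were lower than on collagen and 0 were higher. Mb fell 3.49-fold, Pgam2, the muscle phosphoglycerate mutase, fell 1.9-fold, and Pygm, the muscle glycogen phosphorylase, fell 1.35-fold. Ckb, Pfkm, Phka1 and Eno3 did not pass the test, and Ckm, Ckmt2 and Ampd1 were too dim to be tested. A gene passed at an adjusted p under 0.05 in limma, a moderated linear model, adjusted by Benjamini-Hochberg over all 10941 genes whose mean signal reached 2.33, the median over all probe sets. Among all genes tested 40.1% passed, 20.2% lower and 19.9% higher on fibronectin, and 3 of the 7 tested members is close to the first of these shares. Tested by probe set, 3 of 9 member probe sets above the filter were lower and 0 higher, against 32% of all 22496 probe sets passing, 15.8% lower and 16.2% higher. In 5 of the 7 tested genes all fibronectin samples lay below all collagen samples, and in 0 above. Over all genes tested the groups were separate in 53.3%, lower on fibronectin in 25.9% and higher in 27.4%. The median log2 change was -0.16 over the 7 tested members and 0.00 over all genes tested. The samples were bulk RNA, so fewer cells that express a gene and less RNA per cell cannot be told apart.

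**Figure D1:**
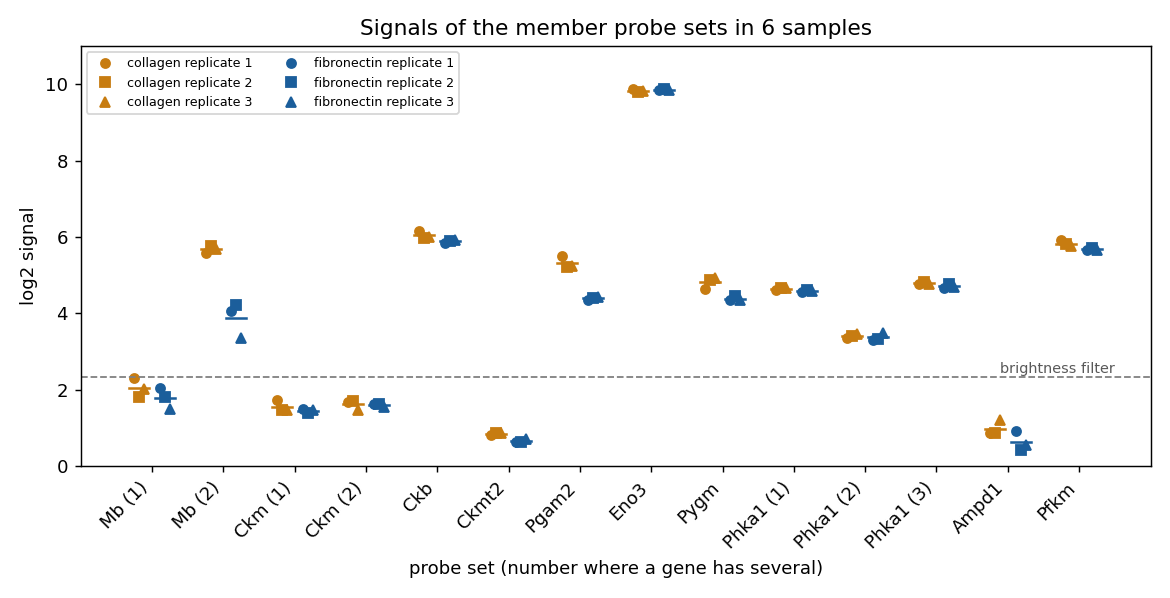
Log2 signal of each of the 14 member probe sets in the 6 samples, with collagen in orange, fibronectin in blue, a symbol for each replicate number and short lines at the group means; the dashed line is the brightness filter of 2.33. The fibronectin samples of the brighter Mb probe set, Pgam2 and Pygm lie below all collagen samples, while those of Eno3 overlap them.

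Myoglobin had the largest change of the set. Its brighter probe set read 5.58, 5.77 and 5.69 in the collagen samples and 4.06, 4.21 and 3.37 in the fibronectin samples. The groups did not overlap, and fibronectin replicate 3 lay furthest below the others. The log2 change was -1.80 (SE 0.19, 95% confidence interval -2.25 to -1.36, adjusted p = 0.000347), and 7 tested genes of 10941 fell further. The SD was 0.45 on fibronectin and 0.10 on collagen, and without fibronectin replicate 3 the log2 change was -1.55. The second Mb probe set lay below the filter, at 2.31, 1.82 and 2.03 on collagen and 2.04, 1.82 and 1.51 on fibronectin, and there the groups overlapped. With both probe sets averaged, the log2 change of Mb was -1.03 (adjusted p = 0.000993). The size of the fall thus rests on 1 bright probe set.

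Over the 6 samples, the genes whose signals followed Mb most closely were Srpk3, Klhl41, Acta1, Tnnc2 and Myom2, with Pearson correlations of 0.9975, 0.9955, 0.995, 0.9947 and 0.9947. Acta1 is skeletal muscle actin, Tnnc2 the calcium-binding troponin of fast muscle, Myom2 a protein of the M band, Klhl41 a muscle protein tied to the sarcomere and Srpk3 a kinase of muscle. These correlations run over 6 samples in 2 groups, so a gene that is lower on fibronectin can score high through the coating alone. Of the genes compared 3.8% reached 0.95 with Mb. For Pgam2 the closest genes were Slc35f5, Trappc2l, Retreg2, Man2c1 and Cmtm3, with correlations from 0.997 to 0.9995. For Pygm they were Sft2d2, Akirin1, Havcr2, Zfp954 and Arsb, from 0.9953 to 0.9991. Klhl41, Acta1, Tnnc2 and Myom2 are components of the contractile apparatus or act in it.

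Genes of heme supply changed little in size beside Mb. The 2 other globins looked up, cytoglobin (Cygb) and neuroglobin (Ngb), lay below the filter on both coatings. Of 9 tested genes of globins and heme synthesis 3 were lower and 1 was higher, with a median log2 change of -0.05. With no brightness filter, with samples centred, or without fibronectin replicate 3, 1 was lower and 1 higher. Ppox, an enzyme late in heme synthesis, fell by 0.31 on the log2 scale, but with its probe sets averaged it had a change of -0.13 and did not pass (adjusted p = 0.0889). Alad, which acts early in the pathway, rose by 0.25, and Uros and Alas1, 2 further enzymes of the pathway, had log2 changes of -0.17 each (adjusted p = 0.0152 and 0.0301). With samples centred on their medians neither passed (-0.12 each), and neither did with no brightness filter (adjusted p = 0.0549 and 0.0858). Without fibronectin replicate 3 Uros did not pass (adjusted p = 0.0576). Alas1 passed only without fibronectin replicate 2 (0.0426) when samples were left out singly, and not without any of the other 5 (0.0522 to 0.101). Flvcr1, a heme exporter, had a log2 change of 0.10 and did not pass.

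The creatine kinases showed no change that passed the test. Ckb, the brain-type cytosolic enzyme that many dividing cells make, read 6.17, 5.98 and 5.99 on collagen and 5.85, 5.89 and 5.93 on fibronectin. All fibronectin samples lay below the collagen samples, by a small margin. The log2 change of -0.16 (95% confidence interval -0.30 to -0.02) had an adjusted p of 0.0711, and it passed with an intensity trend and robust variance (0.0417) and with a brightness filter at the 75th percentile (0.0318). Without collagen replicate 1, its highest sample, the log2 change was -0.10 (adjusted p = 0.133), and with samples centred it was also -0.10 (0.19). Both probe sets of Ckm, the muscle cytosolic enzyme, lay below the filter in every sample, between 1.39 and 1.72. Ckmt2, the mitochondrial enzyme of striated muscle, lay far below it, at 0.82, 0.86 and 0.86 on collagen and 0.64, 0.64 and 0.70 on fibronectin. The Ckmt2 groups did not overlap. With no brightness filter its log2 change of -0.18 passed when tested by gene (adjusted p = 0.0419) but not by probe set (0.0913). Samples of the same coating share identical values, which narrows its spread. No fold is given for signals so far under the filter.

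Genes that supply creatine and handle adenine nucleotides moved both ways, with 5 of 12 tested genes higher, 3 lower and a median log2 change of 0.03. All 3 lower calls held with no brightness filter, but of the 5 higher calls only that of Ak4 did, and 1 was also the count of higher genes without collagen replicate 2, fibronectin replicate 1 or fibronectin replicate 3. Slc6a8, the transporter that brings creatine into the cell, fell 1.85-fold, from 8.76 ± 0.05 to 7.87 ± 0.03 (SD, n = 3; adjusted p = 1.71e-05). Adssl1, the muscle isoform of adenylosuccinate synthase, fell 2.4-fold, from 6.15 ± 0.02 to 4.88 ± 0.04 (adjusted p = 8.81e-06). Its widely expressed counterpart Adss had a log2 change of 0.15 and passed (adjusted p = 0.0208), but it did not pass without collagen replicate 2 or any of the fibronectin replicates (adjusted p from 0.0536 to 0.0695), or with no brightness filter (0.0705). Adssl1 and Ampd1 act in the purine nucleotide cycle of muscle, in which AMP is deaminated to IMP and made again. Ampd1 was dim in every sample, at 0.88, 0.87 and 1.20 on collagen and 0.92, 0.41 and 0.55 on fibronectin, with overlapping groups. Its relatives were brighter than the filter, Ampd3 with a fall of 1.42-fold (adjusted p = 0.000528) and Ampd2 with a log2 change of 0.02 that did not pass. Ak4, a mitochondrial adenylate kinase, rose 2.58-fold, from 3.65 ± 0.07 to 5.02 ± 0.11 (adjusted p = 1.59e-05), a log2 change of 1.37 that was 0.65 with its probe sets averaged.

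Among the glycolytic members Pgam2 fell clearly. It read 5.50, 5.22 and 5.23 on collagen and 4.36, 4.39 and 4.42 on fibronectin. Every fibronectin sample lay below every collagen sample, by more than the spread within either group. The log2 change was -0.92 (SE 0.08, 95% confidence interval -1.10 to -0.75, adjusted p = 0.000118). Its widely expressed partner Pgam1 went the other way, with signals of 9.51, 9.60 and 9.56 on collagen and 9.75, 9.75 and 9.76 on fibronectin, a rise of 0.20 on the log2 scale (adjusted p = 0.00829).

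Pfkm, the muscle phosphofructokinase, read 5.91, 5.81 and 5.76 on collagen and 5.66, 5.72 and 5.66 on fibronectin. The groups were separate, and the log2 change of -0.15 (95% confidence interval -0.27 to -0.03) did not pass (adjusted p = 0.0575). It passed without collagen replicate 3 at -0.18 (adjusted p = 0.0413), with an intensity trend and robust variance (0.0443) and with the 75th percentile filter (0.026). With samples centred the log2 change was -0.09 (0.183). The liver-type and platelet-type phosphofructokinases rose. Pfkl read 6.89, 6.99 and 7.02 on collagen and 7.59, 7.64 and 7.62 on fibronectin, a 1.57-fold rise (adjusted p = 7.83e-05). Pfkp rose 1.37-fold, from 6.57 ± 0.03 to 7.02 ± 0.04 (adjusted p = 0.000233).

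Eno3, the muscle enolase, had the smallest change of the tested members. It read 9.88, 9.80 and 9.81 on collagen and 9.85, 9.88 and 9.85 on fibronectin, and the 2 groups overlapped. The log2 change was 0.03, with a 95% confidence interval of -0.07 to 0.13 (adjusted p = 0.628). Eno2, the enolase best known from neurons, fell 2.12-fold from 3.78 ± 0.03 to 2.70 ± 0.03 (adjusted p = 8.81e-06). Over the glycolysis list outside the muscle isoforms 7 of 17 tested genes were higher and 5 lower, with a median log2 change of 0.04. With no brightness filter, with samples centred, or without fibronectin replicate 1, 3 were lower. Pfkfb3, which makes an activator of phosphofructokinase, rose 1.45-fold, and Pgk1, a later glycolytic kinase, rose 1.19-fold.

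**Figure D2:**
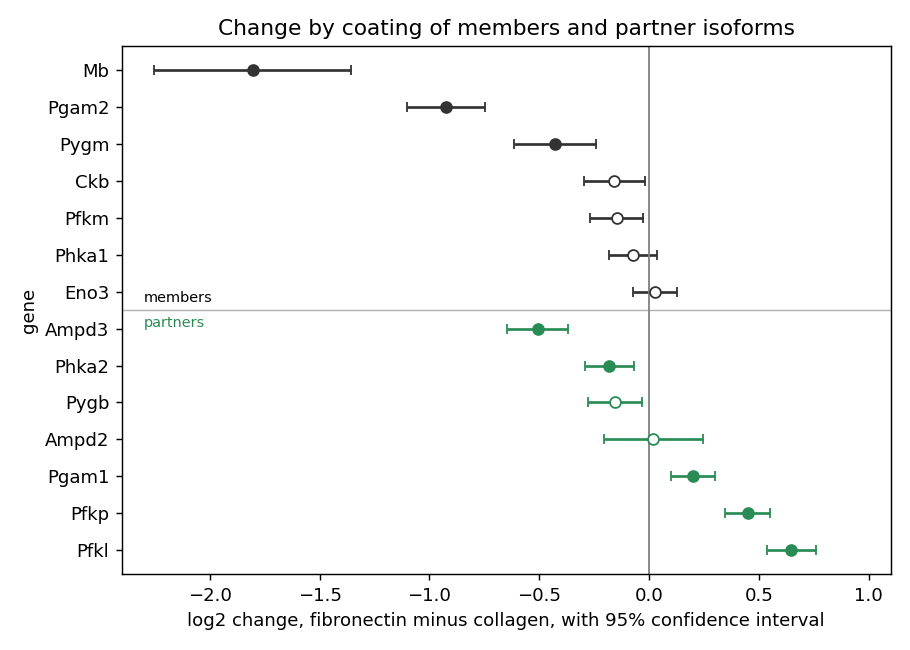
Log2 change, fibronectin minus collagen, of the 7 tested members (black) and 7 tested partner isoforms (green), with 95% confidence intervals from limma; filled points passed the adjusted threshold of 0.05. Mb, Pgam2 and Pygm lie furthest to the left among the members, at -1.80, -0.92 and -0.43, and Pgam1, Pfkp and Pfkl lie to the right of 0.

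Because 2 isoforms on 1 array share its scaling, the log2 difference between a muscle isoform and its partner was taken within each sample. It was compared between coatings for 5 of 10 measured pairs, those in which both genes were bright enough. Eno3 was in no measured pair. Relative to the collagen mean, Pgam2 minus Pgam1 was -1.16, -1.12 and -1.10 in the fibronectin samples, against 0.22, -0.14 and -0.08 in the collagen samples. Pfkm minus Pfkl changed by -0.80 and Pfkm minus Pfkp by -0.60, with pooled SDs of 0.10 and 0.07. With all probe sets of a gene averaged these were -0.65 and -0.52. Pygm minus Pygb changed by -0.28. In these 4 pairs all fibronectin samples lay below all collagen samples, whereas Phka1 minus Phka2 overlapped, with a change of 0.11. The share of all gene pairs that separate was not computed, and of single genes tested 53.3% were separate in either direction. In the Pfkm pairs Pfkm itself did not pass, with a log2 change of -0.15, while Pfkl and Pfkp rose by 0.65 and 0.45. Exact two-sided permutation tests gave p = 0.1 for each of the 4 pairs and 0.2 for Phka1 minus Phka2 (adjusted over the 5 pairs, 0.125 and 0.2). With 3 samples against 3 a p of 0.1 is the smallest the test can give, so it cannot pass 0.05.

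**Figure D3:**
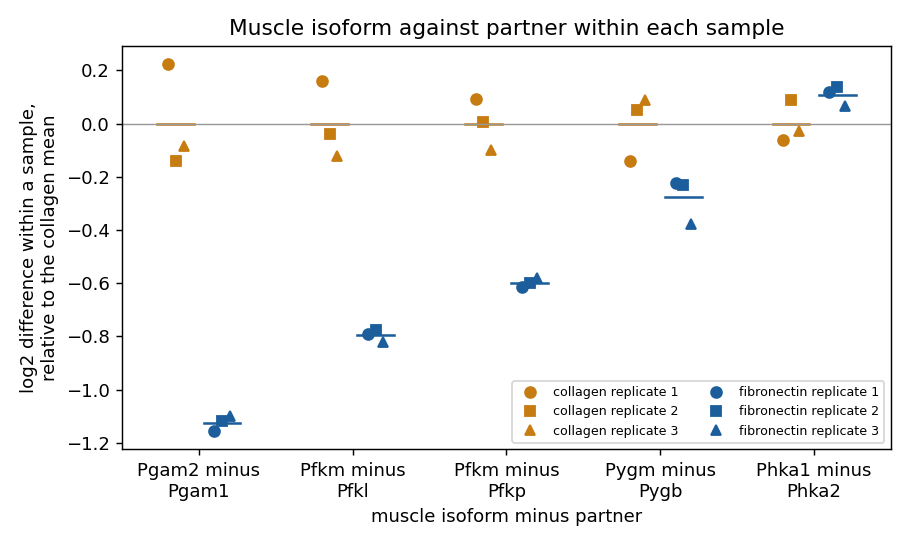
Log2 difference between a muscle isoform and its partner within each sample, set to a collagen mean of 0, with collagen in orange, fibronectin in blue, a symbol for each replicate number and short lines at the group means. Pgam2 minus Pgam1 separates the coatings most, by 1.12, and Phka1 minus Phka2 shows overlapping samples.

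For glycogen use, Pygm read 4.63, 4.87 and 4.93 on collagen and 4.35, 4.44 and 4.35 on fibronectin. The groups did not overlap, though collagen replicate 1 lay closest to the fibronectin samples. Fibronectin replicates 1 and 3 share an identical value, 4.34837, which narrows the spread of that group. The log2 change was -0.43 (SE 0.08, 95% confidence interval -0.62 to -0.24, adjusted p = 0.00435). Pygb, the brain-type phosphorylase, had a log2 change of -0.15 and an adjusted p of 0.0505, and it passed under 6 of the alternatives, among them leaving out fibronectin replicate 3 (0.0467). Pygl, the liver type, lay below the filter.

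Phka1, the muscle regulatory subunit of phosphorylase kinase, was measured by 3 probe sets that gave the same picture. The brightest read 4.77, 4.83 and 4.77 on collagen and 4.67, 4.78 and 4.70 on fibronectin, with overlapping groups. Its log2 change was -0.07 (95% confidence interval -0.18 to 0.04, adjusted p = 0.26), and the others had log2 changes of -0.05 and -0.04 and overlapped too. Phka2, the liver-type subunit, had a log2 change of -0.18 and passed (adjusted p = 0.0209), but not with its probe sets averaged (-0.11, adjusted p = 0.113), with samples centred (0.0883), with no brightness filter (0.0656), or without collagen replicate 3 (0.0546) or fibronectin replicate 1 (0.072). Across the glycogen list 4 of 12 tested genes were lower and 0 higher, with a median log2 change of -0.08. Gaa, the lysosomal enzyme that degrades glycogen, fell 1.48-fold, Ugp2, which makes the glucose donor for glycogen, fell 1.22-fold, and the branching enzyme Gbe1 fell 1.21-fold.

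The upstream sequences of the members that fell are shown beside that of Eno3, which did not pass the test, since promoters of muscle enzymes are known to be bound by myogenic factors. Each is 300 bases long, 250 before and 50 after an annotated transcription start, from RefSeq on GRCm38.p6, given on the gene's strand from 5′ to 3′. Of the 10 members 9 had an entry, with 14 starts in all. Capitals mark matches to the E-box (CANNTG), which MyoD and myogenin bind, and to the MEF2 motif, searched on both strands.
Mb, chr15:77022678-77022977, minus strand: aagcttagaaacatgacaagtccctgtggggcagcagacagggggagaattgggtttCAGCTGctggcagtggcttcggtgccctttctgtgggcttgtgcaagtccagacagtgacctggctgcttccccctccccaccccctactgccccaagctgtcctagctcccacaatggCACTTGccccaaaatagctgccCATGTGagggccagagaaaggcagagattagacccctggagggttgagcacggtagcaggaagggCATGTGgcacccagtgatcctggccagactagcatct
Pgam2, chr11:5803747-5804046, minus strand: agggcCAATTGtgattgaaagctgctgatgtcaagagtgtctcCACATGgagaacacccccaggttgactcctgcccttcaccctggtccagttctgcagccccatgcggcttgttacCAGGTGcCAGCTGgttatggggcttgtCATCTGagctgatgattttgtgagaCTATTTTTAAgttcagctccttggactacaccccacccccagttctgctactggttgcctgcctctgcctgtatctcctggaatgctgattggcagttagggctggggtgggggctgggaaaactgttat
Pygm, chr19:6384158-6384457, plus strand: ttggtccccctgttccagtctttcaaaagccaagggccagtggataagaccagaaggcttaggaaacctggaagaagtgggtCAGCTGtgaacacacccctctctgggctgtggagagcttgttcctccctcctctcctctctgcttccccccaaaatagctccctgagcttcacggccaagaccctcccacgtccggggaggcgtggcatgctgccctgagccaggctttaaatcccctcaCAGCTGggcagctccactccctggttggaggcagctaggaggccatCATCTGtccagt
Eno3, chr11:70656926-70657225, plus strand: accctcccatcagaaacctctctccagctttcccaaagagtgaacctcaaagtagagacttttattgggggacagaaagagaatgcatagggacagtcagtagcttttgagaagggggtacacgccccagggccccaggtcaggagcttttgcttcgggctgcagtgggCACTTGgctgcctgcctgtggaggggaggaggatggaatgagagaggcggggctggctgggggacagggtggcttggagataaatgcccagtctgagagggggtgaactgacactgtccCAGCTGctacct

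E-box matches numbered 4 for this start of Mb, 5 for Pgam2, 3 for Pygm and 2 for Eno3. The other annotated starts of Mb had 3 and 2. Of the other members, Ckmt2 had 4, Phka1 2, Ckm 1 and Ckb 0, and the Pfkm starts had 0 to 3. E-boxes are common, with at least 1 match in 72.3% of 32841 promoters of this length. The CAGCTG form, itself an E-box, was found once in the windows shown for Mb, Pgam2 and Eno3 and 2 times in that of Pygm, against 16.3% of promoters with any match. It was also found in the windows of Ckm, Ckmt2 and Phka1, which were not called, and not in those of Ckb and Pfkm. A MEF2 match was found in the window of Pgam2, with its first base at position -80 from the start, and in that of Ckb, which did not pass the test, and 1.86% of promoters had one. These matches describe letters in the windows and do not show binding.

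Of factors known to bind these motifs, some fell and others did not pass the test. Whether they act on the members here was not tested. Of 9 tested activators of muscle metabolic genes 4 were lower and 1 was higher, with a median log2 change of -0.06. Myog, the myogenic factor of differentiation, fell 1.78-fold (adjusted p = 0.00132), and the MEF2 factors Mef2c and Mef2a fell 1.89-fold and 1.54-fold (adjusted p = 1.92e-05 and 7.68e-05). Mef2d had a log2 change of -0.17 (adjusted p = 0.0282) that did not pass with samples centred (-0.11, 0.137), with its probe sets averaged (0.075), with no brightness filter (0.0829), or without collagen replicate 2 or any of the fibronectin replicates (0.0651 to 0.0876). Myod1, the lineage factor, had a log2 change of -0.06, and Myf5, also on the list, one of 0.08. Neither passed (adjusted p = 0.289 and 0.364). Ppargc1a, a coactivator of mitochondrial genes and, in muscle, of myoglobin, rose by 0.54 on the log2 scale (adjusted p = 0.029), from a collagen mean of 2.27 that lay under the filter, and it did not pass without any of the collagen replicates (adjusted p from 0.0673 to 0.0805), or with no brightness filter (0.0701). With no brightness filter the list thus had 3 genes lower and 0 higher. Without fibronectin replicate 2, its highest sample, the log2 change was 0.33.

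Genes of muscle mitochondria and fatty acid fuel were split, with 3 of 11 tested genes higher and 4 lower and a median log2 change of -0.04. Cox8b, a respiratory chain subunit of striated muscle, fell 2.56-fold from 4.01 ± 0.12 to 2.65 ± 0.18 (adjusted p = 7.19e-05). Fabp3, the fatty acid carrier of heart and muscle, fell 2.72-fold from 3.81 ± 0.16 to 2.36 ± 0.27 (adjusted p = 0.000197), a log2 change of -1.44 that was -0.75 with its probe sets averaged. Acadm, an enzyme of fatty acid oxidation, fell by 0.19 on the log2 scale. Lpl, which frees fatty acids from lipoproteins, rose 1.51-fold, and Pdk4, a kinase that spares glucose, rose 1.42-fold.

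**Figure D4:**
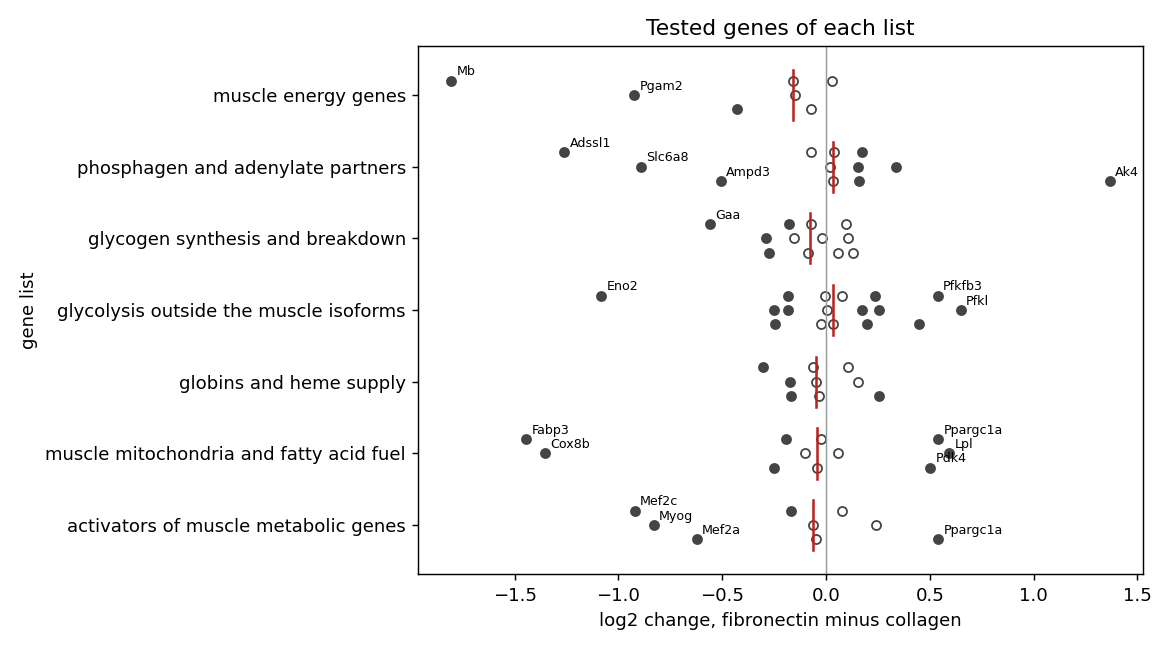
Log2 change, fibronectin minus collagen, of every tested gene in the muscle energy set and in 6 related lists; filled points passed the adjusted threshold of 0.05, red bars are list medians, and genes past 0.45 in size are named (Ppargc1a is in 2 lists). The medians of the 6 related lists lie between -0.08 and 0.04, with single genes such as Fabp3 and Ak4 far from them.

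Markers were read to check the cells. Of 10 myoblast and muscle markers 9 were above the filter. Of other cell types, 2 of 9 measured fibroblast markers, 5 of 8 of smooth muscle and pericytes and 1 of 8 of endothelium were above it. So were 2 of 8 of macrophages, 2 of 5 of adipocytes and 2 of 4 of Schwann and neural cells. Of 4 erythroid markers 0 were above it. Pdgfra, Pecam1, Ptprc, Adipoq and Hba-a1 lay below it in every sample. The markers above it in every sample included Col3a1, Acta2, Rgs5, Egfl7, Cd68, Pparg, Fabp4 and Sox10. Whether other cells were present was not tested. The summed linear signal of the myoblast and muscle markers was 4872 to 5084 on collagen and 4301 to 4501 on fibronectin, with 4 markers lower and 1, Cdh15, higher. Sums of linear signals mainly follow their brightest genes, here Chrna1, with a collagen mean of 11.13 and a log2 change of -0.31. Some markers of other cells fell with Mb, Pgam2 and Pygm. The summed signal of the adipocyte markers was 62.4 to 65.9 on collagen and 19.8 to 23.1 on fibronectin, with Fabp4 4.28-fold and Pparg 2.7-fold lower. That of the macrophage markers was 43.0 to 51.2 and 29.6 to 35.5, with Cd68 2.42-fold lower while Csf1r had a log2 change of -0.03. The sum of the Schwann and neural markers was 38.9 to 42.6 on collagen and 23.4 to 27.3 on fibronectin, and that of smooth muscle and pericyte markers 1487 to 1542 and 1346 to 1427. The fibroblast sum moved the other way and was 626.9 to 689.6 on collagen and 738.9 to 791.7 on fibronectin. Col3a1 was higher by 0.21 on the log2 scale (adjusted p = 0.0163) and Thy1 lower by a log2 change of -0.32 (adjusted p = 0.0399). With a collagen mean of 9.33, Col3a1 makes up most of this sum, while 7 of the 9 markers lay below the filter. The sum thus shows a change of 1 gene and not of the list. The endothelial and erythroid sums overlapped between coatings. The pericyte marker Rgs5 fell 2.36-fold and Ngfr 2.61-fold. Of 5 tested smooth muscle and pericyte markers 1, Rgs5, was lower and 2 were higher, with a median log2 change of 0.12. Tagln rose 1.83-fold. Acta2, the brightest of the list, had a log2 change of 0.21 (adjusted p = 0.027, and 0.0747 with no brightness filter). The lower sum of these markers thus follows Rgs5 and not the list. The part of these cells or genes in the changes of the muscle energy genes was not tested.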

How the data were processed

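The authors deposited log2 signals for 45101 probe sets. Per the submitters' processing notes the tools were RMA and Affymetrix Expression Console. RMA removes background, brings arrays to 1 distribution and combines probes on a log2 scale. Their versions and settings are not known from the labels. RMA compresses changes of dim probe sets, and 19% of probe sets had an identical value in 2 or more samples.

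Groups came from the sample titles, and values were used as deposited. Gene names came from the array's annotation, updated through RefSeq's GRCm38.p6 table, which held 18032 of its 18194 identifiers. Probe sets with several genes (932) were not named, and of 98 related genes listed 88 had a measured probe set. Each gene was represented by its brightest probe set. Fits used limma 3.58.1 in R 4.3.3 (lmFit, eBayes, two-sided, coating only, 4 residual and 3.81 prior degrees of freedom) on genes with a mean of at least 2.33, and on probe sets likewise. Array signals give no count of molecules. Promoter windows were searched for 6 motifs. Figures used matplotlib 3.10.9.

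Named genes were all members, up to 5 genes of smallest p in each list, the partner isoforms, markers, and the 5 genes most correlated with each of 3 members. Members and lists were chosen with earlier results of these data known. On simulated data, with 10941 genes of which 200 changed, recovery was 64% at 1.25-fold and 92% at 1.5-fold, with 12 false calls among 188. In the real data 40.1% of genes passed, a far larger share than was changed in the simulation. Its recovery and false calls therefore do not carry over to them. Same-numbered samples of the coatings had correlations of their deviations of 0.101, -0.0091 and 0.078, so the numbers were not taken as pairs. Alternatives were other brightness filters, quantile normalisation or centring, averaged probe sets, an intensity trend with robust variance, the replicate number as a block, and each sample left out.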

Additional observations from a re-analysis of the deposited data

How the results depend on the processing

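Mb, Pgam2 and Pygm kept their direction and passed under every alternative in which they were tested, with log2 changes between -1.97 and -1.03, between -0.97 and -0.83 and between -0.52 and -0.37. A brightness filter at the 75th percentile, or 5.18, left all 3 of them untested and called Ckb and Pfkm instead. An intensity trend with robust variance called 5 members, all 5 lower, in place of 3. With the replicate number as a block 3 members and 4178 genes passed, against 3 and 4384, and the block changed the call of no member, while Pygb passed with it (adjusted p = 0.0487). Collagen replicate 2 correlated best with fibronectin replicate 3 and not with its own number. Leaving out 1 sample at a time gave 3 to 4 members. Eno3 and Phka1 passed under none of the alternatives. Centring samples on their medians shifted the median change of all genes from 0.00 to 0.06 and gave 64.4% of calls higher in place of 49.6%, and the same 3 members passed.

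Over the 6 related lists 16 of 69 tested genes were higher and 23 lower, against 19.9% higher and 20.2% lower over all genes tested. With samples centred 18 were higher and 16 lower, beside 2973 higher and 1646 lower over all genes tested. The turn in the balance of the lists thus went with a shift of all genes. Without a brightness filter 10 of 88 were higher and 16 lower, and leaving out 1 sample at a time gave 10 to 15 higher, the lowest without collagen replicate 2, and 17 to 21 lower. Of the 5 isoform pairs 4 were separate between coatings, as were 53.3% of single genes tested. With the 75th percentile filter only the 2 Pfkm pairs could be tested and both, 2 of 2, were separate. All 5 were separate without collagen replicate 2 or without fibronectin replicate 3, and 4 without each other sample. Dim signals limit Ckm, Ckmt2, Ampd1 and the second Mb probe set.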
